A study of Mus musculus with 4 samples.

Results

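Smooth muscle cells shorten by sliding actin filaments past myosin, and the genes described here encode that machinery. They are Acta2 and Actg2, the smooth muscle actins; Myh11, the smooth muscle myosin heavy chain; Mylk, the kinase that switches myosin on by phosphorylating its light chain; Cnn1, Tagln and Smtn, which bind actin filaments; Lmod1, which nucleates them; Des, the muscle intermediate filament protein; and Synpo2, an actin-bundling protein of muscle. The members were chosen by symbol, and all 10 of 10 symbols were found among the 27999 genes of every matrix. In skin such genes are known from 3 settings. The arrector pili muscle raises the hair, pericytes and vascular smooth muscle surround vessels, and the dermal sheath, the connective tissue cup around the follicle, is itself contractile and makes Acta2.

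All animals were C57BL/6J mice carrying the α-SMACreERT2 transgene, a tamoxifen-inducible Cre driven by the smooth muscle actin promoter, and a Rosa reporter, and all were given 4-hydroxy-tamoxifen on postnatal days 3 and 4. Back-skin dermis was sorted through a gate for the reporter and a gate for Cd26, both of which also required Itga9 or Cd200, and equal numbers (5000 cells) were combined. Chemistry version 2 of the 10x 3′ assay was used for mice of 2 and 18 months labelled YFP, and version 3 for mice of 2 and 12 months labelled TdTomato, with 2 mice behind each library. Each age and chemistry thus had 1 library, so no test of ages within a chemistry was possible, and the promoter of one member drove the reporter that the sort selected.

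The files held 17130 barcodes, of which 13460 passed as cells. They numbered 1677 (2 months) and 2431 (18 months) for version 2, and 5388 (2 months) and 3964 (12 months) for version 3. Median depth per kept cell was 6260 and 6588 unique molecular identifiers (UMIs, counted mRNA molecules) in version 2 and 11934 and 11786.5 in version 3. At most 11 kept barcodes were shared by any pair of libraries, 0.417% of the smaller library or less. The study's text gives 2707 cells for sample 1 and 1906 for sample 2, whereas the file labelled 2 months, version 2, held 1906 barcodes and that labelled 18 months held 2727, so directions in the version 2 pair rest on the files as deposited. The version 3 libraries, labelled TdTomato, contained UMIs of the eYFP entry, at 2542 and 2803 CPM (UMIs of a gene per 1000000 UMIs) in their dermal sheath-like cells, which goes against that label. The study's text also places 12 months with the young mice.

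Cells were clustered with the 10 members and the wider pathway lists left out, and 21 clusters were named from marker genes. The arrector pili-like class was 1 cluster of 65, 17, 458 and 2 cells (2 and 18 months in version 2, then 2 and 12 months in version 3; this order holds below). Its markers included Pcp4, Kcnmb1, Pdlim3 and Jph2, and Rgs5, a pericyte gene, was at 3.86, 9.14 and 0.186 CPM in the first 3 libraries. The pericyte and vascular smooth muscle-like class held 221, 255, 28 and 11 cells, with Rgs5 at 4422, 3004, 4595 and 6379 CPM. The dermal sheath-like class held 245, 396, 1367 and 1784 cells, with Tnmd at 759, 1442, 1192 and 863 CPM and Col11a1 at 1471, 1656, 2191 and 1688 CPM. Different clusters made up the sheath-like class at the ages compared. In version 3 one cluster supplied 876 of its cells at 2 months and another 1355 at 12 months. In version 2 the cluster led by Npr3, Csrp2 and Prss35 supplied 5 cells at 2 months and 132 at 18 months. A further cluster, led by Omd, Adamts18 and Clic5, held 906 cells of the 2-month version 3 library and 5, 30 and 10 of the others. It carried Acta2 at 7615 CPM in that library but too few sheath markers among its leading genes to be named, and results on the sheath were also computed with it.

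Transcription of smooth muscle genes is known to run largely through serum response factor and its partner myocardin, which bind the CArG box, a motif of 10 bases made of CC, a core of 6 bases that are A or T, and GG. In the RefSeq promoters of GRCm38.p6, 7 of the 10 members had an entry, namely Acta2, Mylk, Cnn1, Smtn, Lmod1, Synpo2 and Des. None of the 7 held a strict CArG box in the 250 bases before its start, against 1.47% of 32851 promoters (the motif reads the same on both strands). When 1 core base was allowed to be G or C, a choice made after the strict search, Acta2 alone matched, at 2 places, against 8.59% of all promoters with at least 1 match. These matches are shown because Acta2 is the member whose promoter drove the Cre. They lay on the minus strand of chromosome 19, starting 84 and 34 bases before the RefSeq start, at chr19:34255438-34255467 and chr19:34255388-34255417 including 10 flanking bases on each side, and GENCODE M21 annotates a longer first exon that covers both. Capitals mark the matches.
Acta2, distal: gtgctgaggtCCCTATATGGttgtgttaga
Acta2, proximal: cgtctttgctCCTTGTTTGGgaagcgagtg
The absence of a match says only that these letters were not in this window.

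In GRCm38 (GENCODE M21), Acta2 lies at chr19:34241090-34255590, Actg2 at chr6:83512905-83536265, Myh11 at chr16:14194535-14291372, Tagln at chr9:45929619-45936058 and Smtn at chr11:3517523-3540612, all on the minus strand. Mylk at chr16:34745210-35002420, Cnn1 at chr9:22099216-22109630, Lmod1 at chr1:135324807-135368065 and Des at chr1:75360329-75368579 are on the plus strand, and Synpo2 at chr3:123076519-123236149 is on the minus strand and overlaps 3 predicted genes of its own strand. Because 3′ tags were counted, near-identical 3′ ends could be confused between actins. The last 500 bases of Acta2 shared 0 runs of 31 bases with Actg2, Acta1, Actc1, Actb and Actg1, and those of Actg2 shared 2 with Actc1 and 0 with the others.

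The full set was expressed in arrector pili-like cells. After every cell was thinned to 2000 UMIs, a median of 9, 8 and 9 of the 10 members had a UMI per arrector pili-like cell in the first 3 libraries. The share of cells with at least 8 members was 93.8%, 82.4% and 98.5%. Medians were 6, 6, 5 and 5 members in pericyte-like cells and 3, 3, 4 and 3 in sheath-like cells, where no cell reached 8. In papilla-like, fibroblast-like, keratinocyte-like and macrophage and dendritic-like cells medians were 0 or 1. In all 30 combinations of the 10 members and these 3 libraries, the share of thinned cells with a UMI was highest in the arrector pili-like class. At resolution 1, where the 12-month library also had such a class, it was highest there in 32 of 40 combinations and in pericyte-like cells in the other 8, which were 7 members at 12 months and Acta2 at 2 months in version 3. These are descriptions, since classes were built from the same cells.

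**Figure D1:**
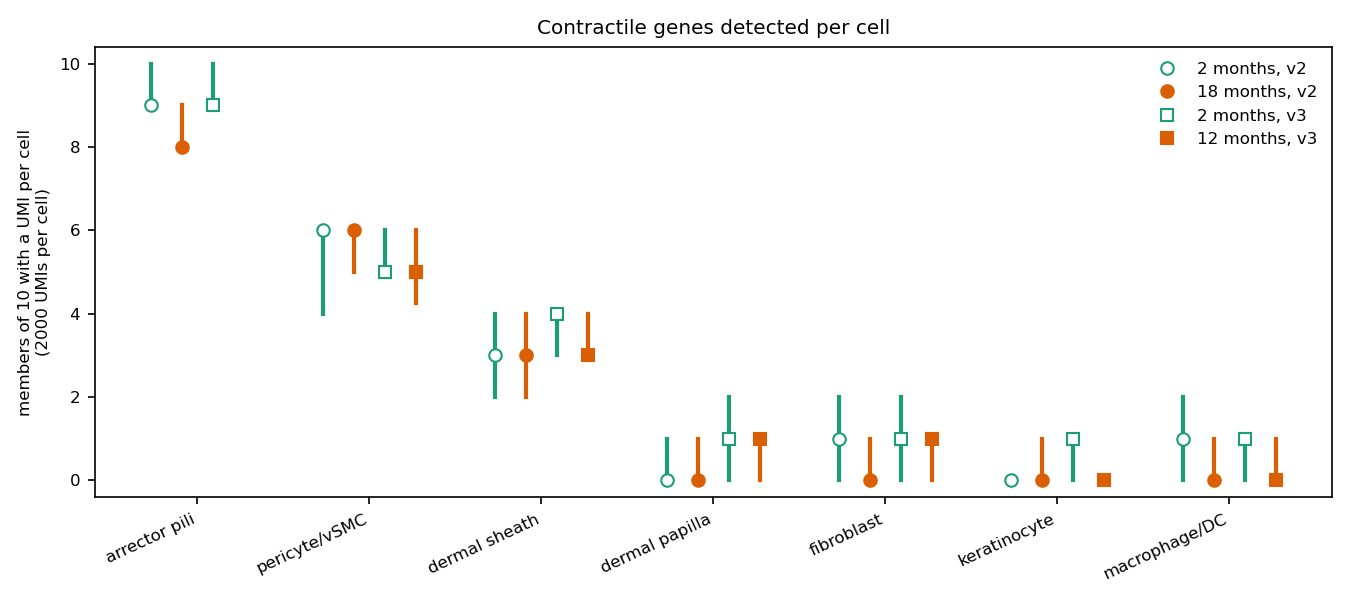
Number of the 10 contractile genes with at least 1 UMI per cell after thinning to 2000 UMIs, by class and library; points are medians and bars span the quartiles over cells. Arrector pili-like cells sit at medians of 8 to 9, pericyte-like cells at 5 to 6, sheath-like cells at 3 to 4 and the other classes at 0 or 1. Classes of under 10 cells are not drawn.

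The actins divided the classes. Acta2 reached 20955, 17889 and 24027 CPM in arrector pili-like cells. It was at 12821, 12431, 8536 and 8396 CPM in pericyte-like cells and at 4529, 4797, 7272 and 8364 CPM in sheath-like cells. The order of classes was the same in the first 3 libraries. In the 12-month library the pericyte-like and sheath-like values nearly coincided, with 11 pericyte-like cells. In papilla-like cells, whose neighbours in the follicle are sheath cells, it was at 154, 127, 343 and 452 CPM. Keratinocyte-like cells, which should lack it, showed 30.2, 126, 407 and 221 CPM, and macrophage and dendritic-like cells 528, 736, 496 and 323 CPM. Only in the 12-month library was the papilla above both.

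Actg2, the enteric smooth muscle actin, did not follow Acta2 in pericyte-like cells. It was at 4483, 2832 and 3091 CPM in arrector pili-like cells and at 631, 636, 736 and 776 CPM in sheath-like cells. In pericyte-like cells it was at 85.5, 209, 94.3 and 44.8 CPM, below the sheath in every library although Acta2 there was higher or level. The share of thinned cells with an Actg2 UMI was 51.8%, 49.2%, 61.6% and 58.3% in the sheath-like class against 9.95%, 8.24%, 14.3% and 10.0% in the pericyte-like class. Among sheath-like cells with Acta2, 61.4%, 59.7%, 64.7% and 61.1% also had Actg2, whereas among pericyte-like cells with Acta2 it was 10.1%, 8.43%, 15.4% and 10.0%. Actg2 UMIs in the pericyte-like class were held by few cells, and 5 cells held 53.2% of them at 2 months and 71.9% at 18 months in version 2.

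Myh11 and Des showed the reverse split. Myh11 was at 3677, 3892 and 5437 CPM in arrector pili-like cells and at 1200, 1095, 1726 and 986 CPM in pericyte-like cells. In sheath-like cells it was at 6.71, 3.58, 28.9 and 11.0 CPM, far below both in every library. Des was at 3812, 2759 and 5668 CPM in arrector pili-like cells, 674, 700.3, 738 and 881 CPM in pericyte-like cells and 6.71, 0.894, 17.7 and 0.321 CPM in sheath-like cells. Pericyte-like and sheath-like cells therefore shared Acta2 and parted on Actg2, Myh11 and Des.

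The motor's kinase and the actin-binding members fell between these patterns. Mylk was at 7310, 5107 and 7164 CPM in arrector pili-like, 1390, 1154, 1732 and 956 CPM in pericyte-like and 453, 336, 598 and 480 CPM in sheath-like cells. Tagln, also called SM22-alpha, was at 6467, 6414 and 12361 CPM, then 4638, 5463, 5516 and 3959 CPM, then 1013, 1310, 2789 and 3285 CPM in the same classes. Both genes were therefore abundant in each of these classes. Cnn1, calponin, was at 2653, 1928 and 2122 CPM in arrector pili-like cells, 223, 373, 72.2 and 89.6 CPM in pericyte-like cells and 8.39, 4.77, 20.1 and 12.0 CPM in sheath-like cells. Lmod1 was at 795, 777 and 959 CPM, then 446, 488, 344 and 329 CPM, then 5.59, 4.47, 7.60 and 9.36 CPM. Lmod1 in pericyte-like cells thus stood closer to its muscle level than Cnn1 did.

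Smtn, smoothelin, and Synpo2 were the least abundant members in muscle. Smtn was at 515, 521 and 524 CPM in arrector pili-like cells, 77.8, 94.2, 49.9 and 14.9 CPM in pericyte-like cells and 58.7, 58.1, 79.9 and 56.8 CPM in sheath-like cells. Pericyte-like and sheath-like Smtn did not keep one order across libraries, and the 2 version 3 pericyte values rested on 9 and 1 UMIs. Synpo2 was at 698, 603 and 800.1 CPM in arrector pili-like, 114, 147, 261 and 74.7 CPM in pericyte-like and 25.7, 17.9, 36.2 and 29.4 CPM in sheath-like cells.

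**Figure D2:**
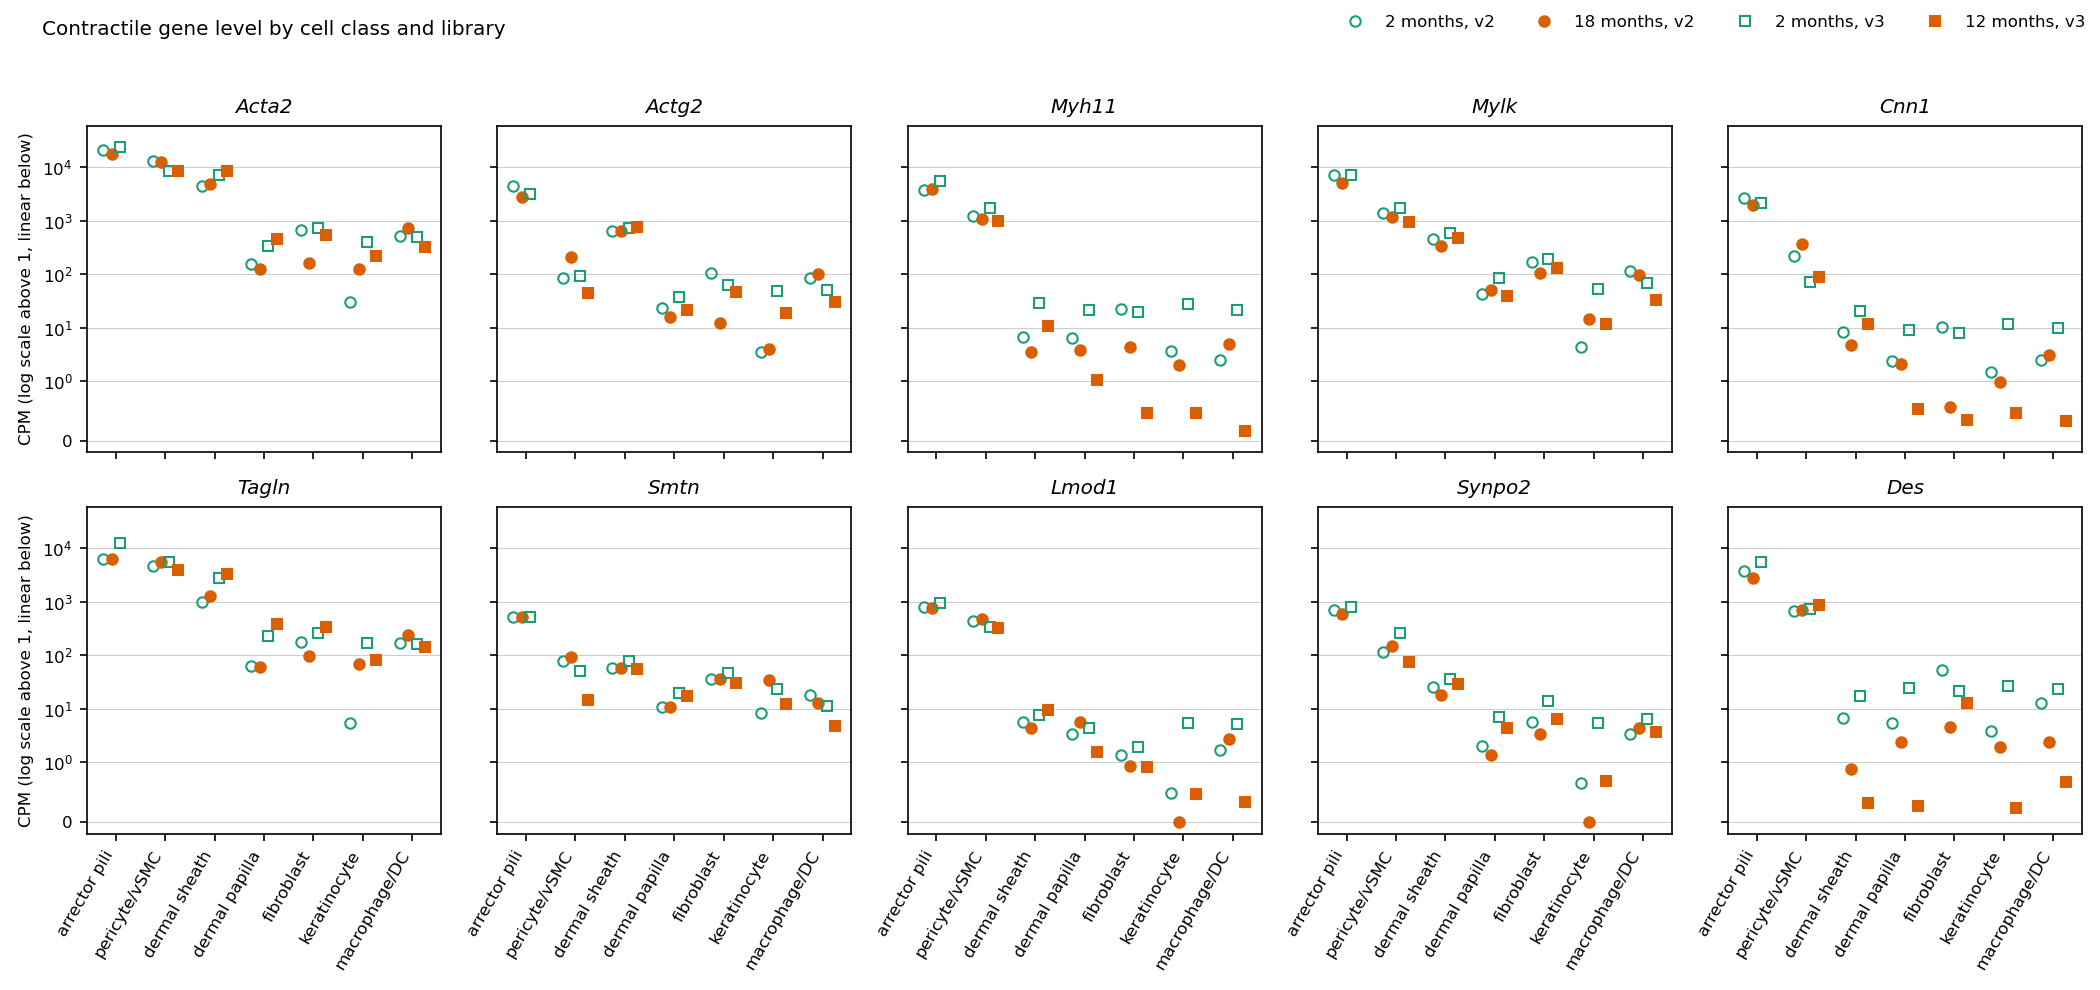
Level of each contractile gene in 7 cell classes, as CPM of UMIs summed per class and library, on an axis that is logarithmic above 1 CPM and linear below; open symbols are 2 months, filled symbols 12 or 18 months, circles version 2 and squares version 3. Actg2 is higher in sheath-like than in pericyte-like cells and Myh11 and Des the other way round; open squares (2 months, version 3) lie between 17.7 and 28.9 CPM for Myh11 and Des in the 5 classes outside muscle and pericytes.

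Genes outside the set that varied most like each member were sought over 31 combinations of class and library with at least 20 cells. Likeness was Pearson's r of log2(CPM + 1), and the other members were left out of the ranking below. Some members were closer to each other than to any gene ranked, as Acta2 with Tagln (0.975), Mylk with Synpo2 (0.954) and Myh11 with Lmod1 (0.952). The lowest r between members was 0.422, for Actg2 with Des. These are descriptions over units that share libraries and classes. Of the genes named next, Mcam, Casq2, Nexn, Jph2, Kcnmb1 and Ldb3 were on the marker lists used to name the classes. Their r is therefore not independent of those classes. Acta2 was closest to Mcam (r = 0.937), a pericyte surface protein, Casq2 (0.936), a calcium store protein, and Nexn (0.935), an actin-binding protein. Mylk was closest to Ppp1r14a (0.950), an inhibitor of the phosphatase that opposes it, then to Dmd (0.935) and Flna (0.935). Myh11 was closest to Pcp4l1 (0.946), Mrvi1 (0.933) and Rbpms2 (0.905), and Des to Pcp4l1 (0.921), Cap2 (0.891) and Rbm24 (0.882). Synpo2 was closest to Jph2 (0.955), Tpm2 (0.942) and Slmap (0.923), and Cnn1 to Sh3bgr (0.933), Kcnmb1 (0.930) and Ldb3 (0.923). Tagln was closest to Nexn (0.942), Palld (0.928) and Mcam (0.924), Lmod1 to Mrvi1 (0.940), Ppp1r12a (0.935) and Ppp1r12b (0.928), and Smtn to Csrp1 (0.928), Cfl2 (0.893) and Slmap (0.887). Actg2 was closest to Sbspon (0.933), Ramp1 (0.878) and Ckb (0.863), and among the members to Acta2 (0.878).

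Summed over all kept cells, the contractile genes were lower in the older library of both pairs. At 18 against 2 months in version 2, all 10 members had a ratio below 1. A change is called here, within a pair, where CPM differed at least 2-fold and the exact 95% Poisson interval of the ratio, which covers counting error only, excluded 1. By that rule of size 3 of 10 members were lower and 0 higher in version 2, where 6.17% of 15279 genes were called lower and 8.22% higher. In version 3, at 12 against 2 months, 7 of 10 were lower and 0 higher, where 6.57% of 17038 genes were called lower and 3.69% higher. The median log2 ratio of the members was -0.83 in version 2 and -1.94 in version 3, against 0.12 and -0.11 over all genes counted.

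Des had the largest fold in both pairs. It was at 192 and 64.3 CPM in version 2 and at 458 and 8.20 CPM in version 3. It was 2.99-fold lower at 18 months (95% interval 2.80 to 3.19) and 55.9-fold lower at 12 months (50.7 to 61.7). Myh11 was at 221 and 97.0 CPM in version 2 and at 446 and 11.3 CPM in version 3. It was 2.28-fold lower (2.16 to 2.42) and 39.5-fold lower (36.3 to 42.9). Cnn1 was at 107 and 37.4 CPM, then 178 and 8.18 CPM, which is 2.86-fold lower (2.62 to 3.13) and 21.8-fold lower (19.8 to 24.1). These 3 were the members called in both pairs.

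Lmod1, Synpo2, Mylk and Smtn were called in version 3 only. Lmod1 was 13.3-fold lower (11.8 to 14.9), Synpo2 4.84-fold (4.51 to 5.21), Mylk 3.03-fold (2.98 to 3.09) and Smtn 2.19-fold lower (2.08 to 2.30). Their version 2 ratios were 0.610, 0.515, 0.510 and 0.971, and the difference between pairs was not tested. Acta2 was at 2407 and 2027 CPM in version 2 and at 5575 and 4507 CPM in version 3, with ratios of 0.842 and 0.808. Tagln had ratios of 0.959 and 0.763, and Actg2 0.687 and 0.646. In version 3 the least lowered members were thus Acta2, Tagln and Actg2, and the most lowered were Des, Myh11 and Cnn1. The former were abundant in sheath-like cells and the latter scarce there. Mylk did not follow this order, since it was at 598 and 480 CPM in sheath-like cells and yet 3.03-fold lower. Whether the sheath level had a part in these ratios was not tested. With both chemistries in 1 model (edgeR's quasi-likelihood test, 12 and 18 months against both 2-month libraries, chemistry as covariate, 1 residual degree of freedom), 0 of 10 members and 0 of 15458 genes were called at an adjusted p below 0.05, a background of 0%, and 1698 genes and 7 members had an unadjusted p below 0.05. Mylk had a log2 fold of -1.29 ± 0.21 (SE, edgeR, adjusted p = 0.251) and Des of -3.68 ± 1.21 (edgeR, adjusted p = 0.429). DESeq2 called 384 genes, 232 higher and 152 lower (0.983% of those tested). It called 4 members, Mylk, Cnn1, Lmod1 and Synpo2, all lower.

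The number of arrector pili-like cells moved with these ratios. They were 3.88% of kept cells at 2 months (exact 95% interval 3.00 to 4.91) and 0.699% at 18 months (0.408 to 1.12) in version 2, and 8.50% (7.77 to 9.28) and 0.0505% (0.00611 to 0.182) in version 3, with 1 library each and a sort that can set such shares. The share also depends on the clustering, since at resolution 1 a cluster of 832 cells of the 12-month library, led by Tnnt1 and Mustn1, met the arrector pili marker rule as well. In the 2-month version 3 library this class held 95.2% of Des UMIs, 93.8% of Myh11, 91.6% of Cnn1 and 91.2% of Lmod1, against 33.2% of Acta2. In the 12-month library its 2 cells still held 51.7% of Des and 35.0% of Myh11 UMIs, and 0.449% of Acta2. The sheath-like class held 91.5% of Acta2 and 92.3% of Actg2 UMIs there, against 35.6% and 31.3% at 2 months. In version 2 the class's share of Des UMIs was 64.0% and 24.5%, while that of the pericyte-like class was 28.4% and 70.5%.

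**Figure D3:**
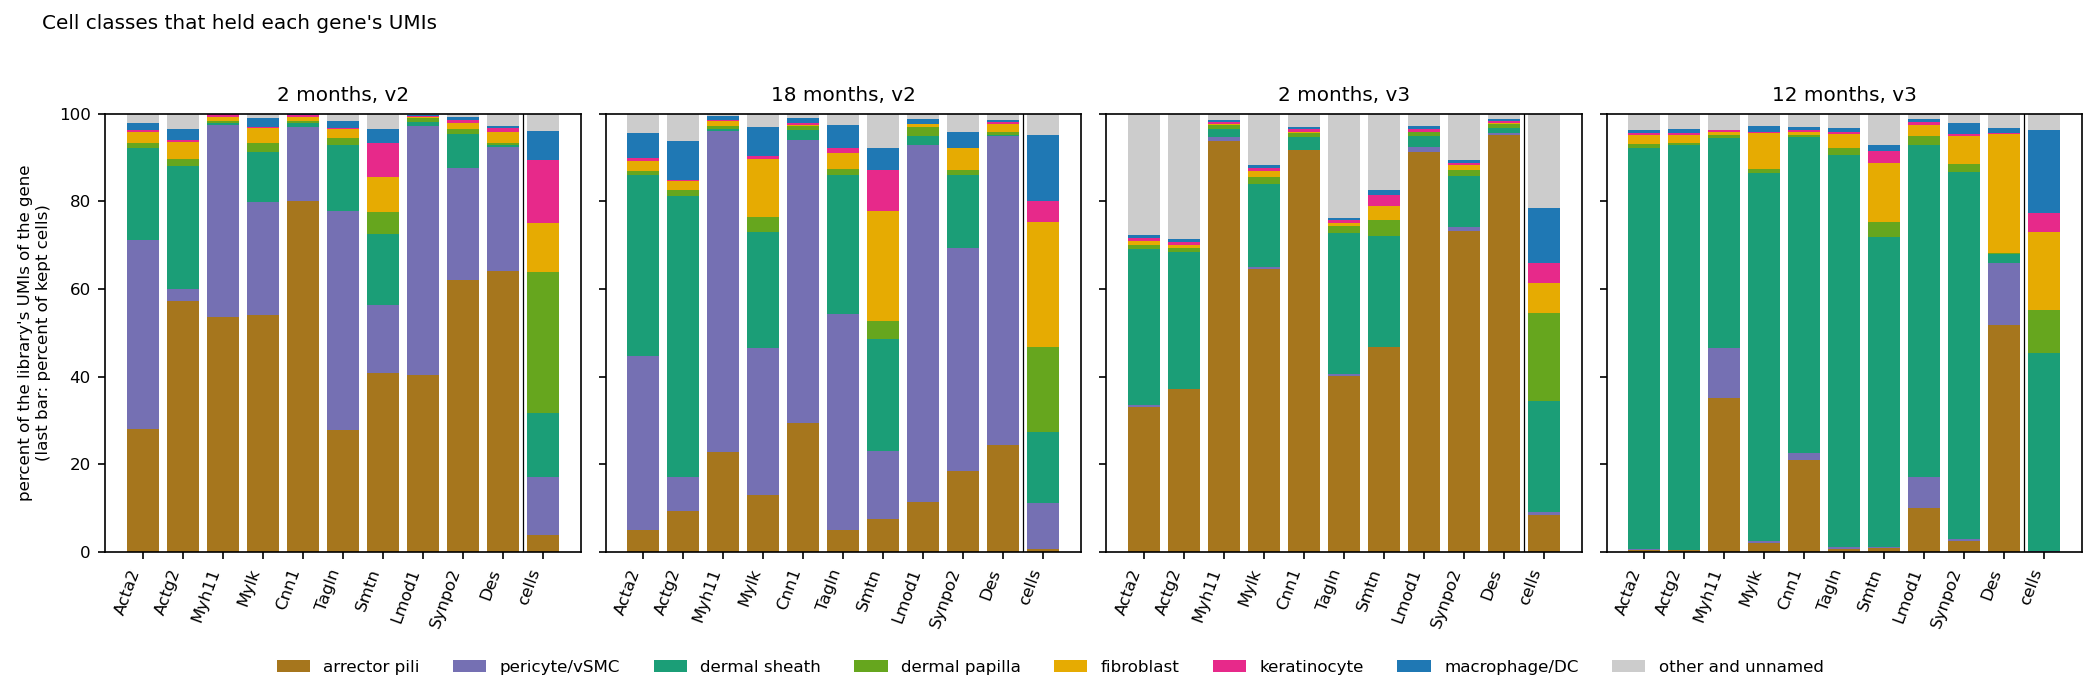
Percent of each gene's UMIs held by each cell class in each library, with the percent of kept cells in the last bar. Arrector pili-like cells are 8.50% of cells but hold over 90% of Myh11, Cnn1, Lmod1 and Des UMIs in the 2-month version 3 library; in the 12-month library sheath-like cells hold most UMIs of every member but Myh11 and Des.

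Without the arrector pili-like cells, a comparison added after the data were seen, 0 of 10 members were called in version 2 and 3 of 10, all lower, in version 3, where 6.09% and 6.06% of genes were called lower and 8.31% and 3.51% higher. Acta2 then had ratios of 1.08 (1.07 to 1.10) and 1.11 (1.11 to 1.12), above 1 where it had been below. Tagln had 1.23 and 1.17. The 3 called lower at 12 months were Des, 6.04-fold (5.21 to 7.03), Myh11, 4.09-fold (3.66 to 4.58), and Cnn1, 2.51-fold (2.22 to 2.85). In version 2 Cnn1 turned from a ratio of 0.349 to 1.21 (1.05 to 1.39). In edgeR's test on these cells 0 of 10 members and 0 of 15446 genes were called, a background of 0%. An unadjusted p below 0.05 was found for 2 members and 1543 genes.

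Within arrector pili-like cells the pair of version 2 could be compared, with 65 and 17 cells. None of the 10 members was called, where 1.49% of 5707 genes were called lower and 2.16% higher. At resolution 1, which added 5 cells at 18 months to this class, 4 of 10 were called lower, namely Actg2, Mylk, Cnn1 and Des. The share of all genes called was not computed at that resolution, so this count has no background. In the main classes the ratios at 18 over 2 months ran from 0.632 for Actg2 (0.559 to 0.712) to 1.06 for Myh11 (0.951 to 1.18). Mylk had 0.699 (0.638 to 0.764), Des 0.724 (0.639 to 0.817), Cnn1 0.727 (0.626 to 0.841) and Acta2 0.854 (0.813 to 0.896). Tagln, Smtn and Lmod1 had 0.992, 1.01 and 0.977, with intervals that included 1. The 2 cells of the 12-month library, too few to compare, held 1022 Acta2, 214 Des and 200 Myh11 UMIs. The 17 cells at 18 months thus had UMIs of all 10 members.

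In pericyte-like cells 1 member was called in each pair. Actg2 was 2.45-fold higher at 18 months (1.95 to 3.09), where 2.16% of 9764 genes were called higher and 2.82% lower, but with the Actg2 UMIs of the 5 cells that had most left out of each library its level was 40.0 and 58.8 CPM. Synpo2 was 3.49-fold lower at 12 months (1.40 to 11.3) on 47 and 5 UMIs from 28 and 11 cells, where 2.56% of 3513 genes were called lower and 2.99% higher. Acta2 had ratios of 0.970 (0.949 to 0.991) and 0.984 (0.891 to 1.08) and Des 1.04 (0.944 to 1.14) and 1.19 (0.863 to 1.63). Myh11 had 0.912 (0.847 to 0.981) and 0.571 (0.431 to 0.747). All members but Actg2 thus differed by under 2-fold at 18 months.

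**Figure D4:**
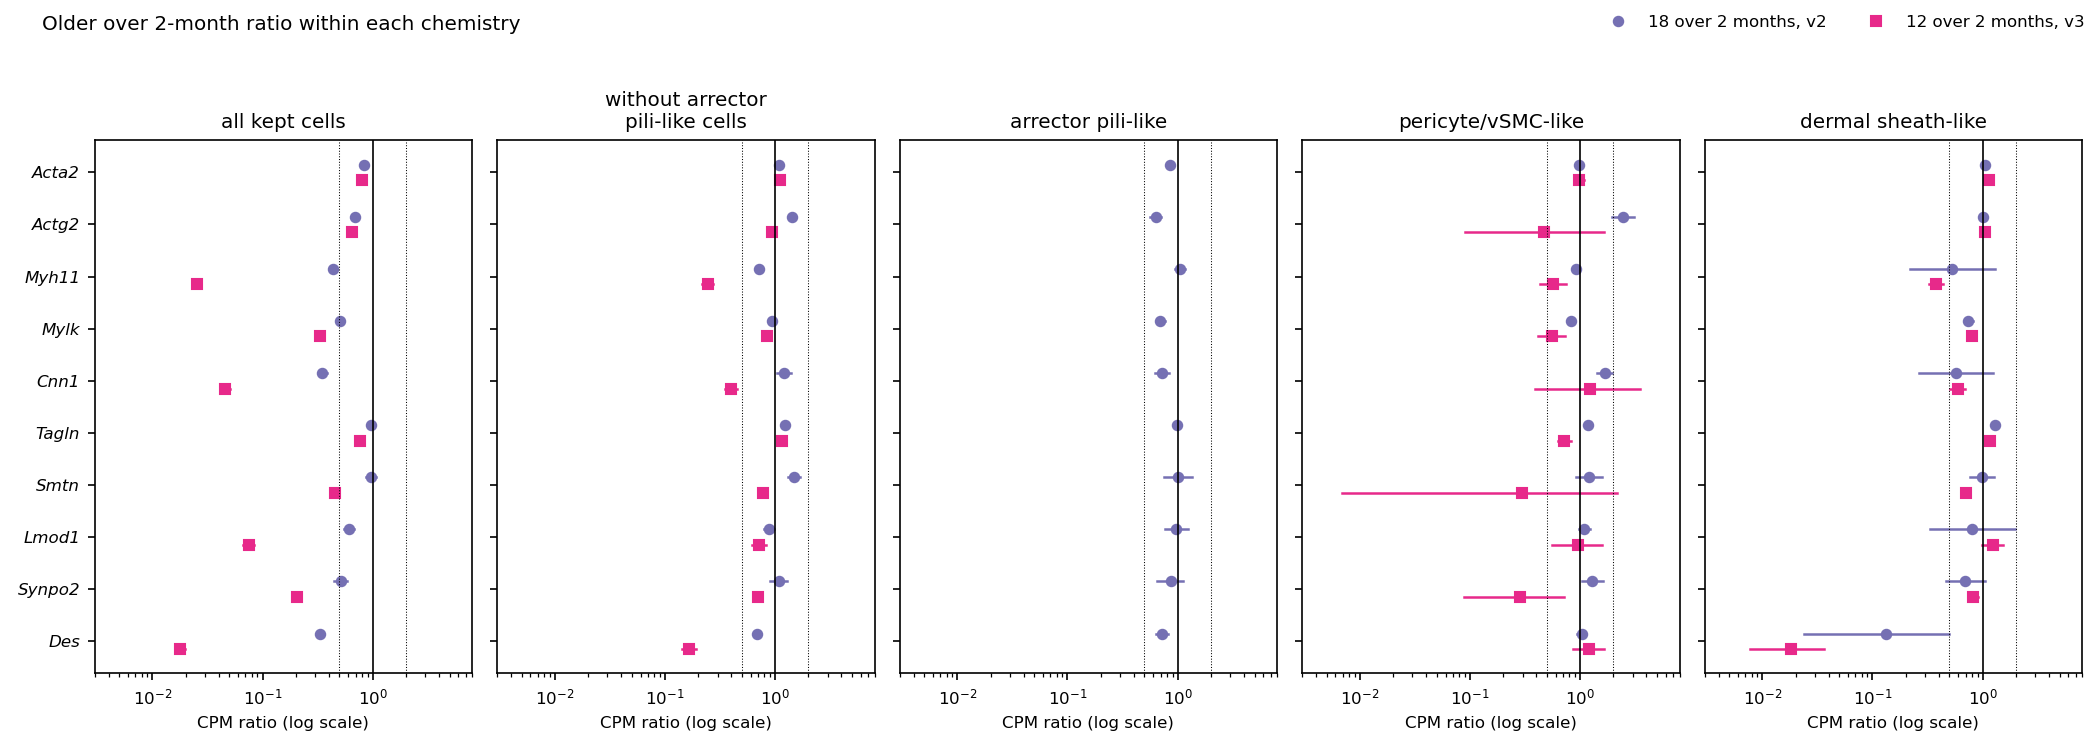
CPM ratio of the older over the 2-month library within each chemistry on a logarithmic axis, with exact 95% Poisson intervals (counting error only); the solid line is 1 and dotted lines mark 2-fold. Over all kept cells the 20 ratios lie left of 1. Without the arrector pili-like cells 3 of 10 members in version 3 and 0 of 10 in version 2 are called lower, and in sheath-like cells Des lies farthest left in both pairs. No arrector pili-like pair exists in version 3.

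In sheath-like cells, summed over clusters, Acta2, Tagln, Actg2 and Mylk were within 1.35-fold of their 2-month level in both pairs. Acta2 had ratios of 1.06 (1.03 to 1.09) and 1.15 (1.14 to 1.16), Tagln 1.29 (1.22 to 1.37) and 1.18 (1.16 to 1.19), Actg2 1.01 (0.937 to 1.08) and 1.05 (1.03 to 1.08) and Mylk 0.742 (0.677 to 0.813) and 0.803 (0.782 to 0.824). Smtn had 0.989 and 0.711 and Synpo2 0.695 and 0.812. Lmod1, at 4.47 to 9.36 CPM, had 0.799 (0.336 to 1.99) and 1.23 (0.997 to 1.53). By edgeR's test none of these 7 was called. Acta2 had a log2 fold of 0.17 ± 0.17 (SE, edgeR, adjusted p = 0.806) and Mylk of -0.35 ± 0.13 (edgeR, adjusted p = 0.266).

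These values depend on which sheath clusters are compared. In the sheath cluster of 434 and 420 cells in version 3, all 10 members were lower in CPM at 12 months and 5 were called lower, where 2.46% of genes were called lower. There Acta2 had a ratio of 0.902 (0.883 to 0.921), Tagln 0.947 (0.921 to 0.973) and Actg2 0.579 (0.541 to 0.620), each turned from above 1 in the whole class. The 5 called were Des, Myh11, Cnn1, Lmod1 and Synpo2. In the sheath cluster of 239 and 231 cells in version 2, Tagln had a ratio of 1.54 (1.46 to 1.64) and Acta2 1.32 (1.28 to 1.35), and Des alone was called lower, where 4.27% of genes were.

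Des and Myh11 were called lower in the whole class. Within pairs Des was called lower in both and Myh11 in version 3, where 1.75% (version 2) and 2.92% (version 3) of genes were called lower and 1.92% and 1.83% higher. Des was 7.51-fold lower at 18 months (2.03 to 41.5) on 12 and 3 UMIs and 55.1-fold lower at 12 months (27.7 to 129) on 338 and 8 UMIs. Myh11 was 2.63-fold lower at 12 months (2.27 to 3.06) on 551 and 273 UMIs. By edgeR 2 of 10 members were called, both lower, where 0.621% of 12404 genes were called lower and 1.94% in either direction. Des had a log2 fold of -5.23 ± 0.43 (SE, edgeR, adjusted p = 1.4e-05) and Myh11 of -1.30 ± 0.20 (edgeR, adjusted p = 0.0024). Cnn1 had -0.72 ± 0.20 (edgeR, adjusted p = 0.086). DESeq2 called Des but not Myh11 (adjusted p = 0.413).

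The same genes were at like levels at 2 months in version 3 in cells that should lack them. Median depth at 2 and 12 months was 13975 and 13691.5 UMIs in sheath-like, 22305 and 18776 in keratinocyte-like, 7826 and 6939.5 in macrophage and dendritic-like and 8403 and 8047 in papilla-like cells. At 2 months in version 3 Des was at 26.3 CPM in keratinocyte-like, 23.4 CPM in macrophage and dendritic-like and 24.5 CPM in papilla-like cells, at or above the 17.7 CPM of the sheath. At 12 months these classes had 0.231, 0.673 and 0.263 CPM, near the sheath's 0.321 CPM. After thinning, 3.65% of sheath-like and 5.70% of keratinocyte-like cells had a Des UMI at 2 months. Myh11 was at 27.9, 21.2 and 21.4 CPM in those classes at 2 months against 28.9 CPM in the sheath, and the thinned shares of sheath-like, keratinocyte-like and macrophage and dendritic-like cells were 5.07%, 1.75% and 4.23%. Because Des in sheath-like cells was no higher than in these classes at 2 months, it is not read as expression by the sheath in that library. The part of RNA from other cells in these values was not tested. The number of Des UMIs per Myh11 UMI was 1.04 in arrector pili-like cells of that library and 0.940, 1.11, 1.15 and 1.11 in keratinocyte-like, macrophage and dendritic-like, papilla-like and fibroblast-like cells. For Cnn1 per Myh11 it was 0.390 in arrector pili-like cells and 0.412, 0.475, 0.423 and 0.407 in the same classes. For Lmod1 per Myh11 it was 0.176 in arrector pili-like cells and 0.198, 0.246, 0.202 and 0.0988 in the same classes, the last on 8 Lmod1 UMIs. In these 4 classes outside muscle, Des and Cnn1 per Myh11 UMI thus lay near the muscle values of their library. Lmod1 per Myh11 UMI lay farther off in fibroblast-like and in macrophage and dendritic-like cells. What set these proportions was not tested.

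Sheath-like cells, summed over clusters, departed from those Des and Cnn1 values. At 2 months in version 3 they had 0.613 Des and 0.697 Cnn1 UMIs per Myh11 UMI. The clusters differed, since that of 876 cells had 0.532 Des and 0.652 Cnn1. That of 434 cells had 1.03 Des, near the muscle value, and 0.842 Cnn1. At 12 months, where the library held 2 arrector pili-like cells, sheath-like cells had 0.0293 Des, 1.09 Cnn1 and 0.853 Lmod1 UMIs per Myh11 UMI. Myh11, Cnn1 and Lmod1 were then at 11.0, 12.0 and 9.36 CPM in the sheath, against 0.463, 0.463 and 0.463 CPM in keratinocyte-like and 0.168, 0.337 and 0.337 CPM in macrophage and dendritic-like cells. They came from 1 sheath cluster of 1355 cells, where they were at 13.4, 14.2 and 11.1 CPM. The other sheath cluster of that library, led by Npr3, Csrp2 and Prss35, had 0.857, 2.57 and 2.14 CPM in 420 cells. Without thinning, 133 of 1784 sheath-like cells had a Myh11 UMI, 148 a Cnn1 UMI and 155 an Lmod1 UMI, and 5 cells held 16.1% of Myh11 UMIs. A low level of these 3 genes, without Des, was therefore present above background in part of the 12-month cells named sheath-like here. That name depends on the clustering. At resolution 1 the 12-month sheath-like class held 933 cells, and a cluster of 832 cells of that library met the arrector pili marker rule.

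**Figure D5:**
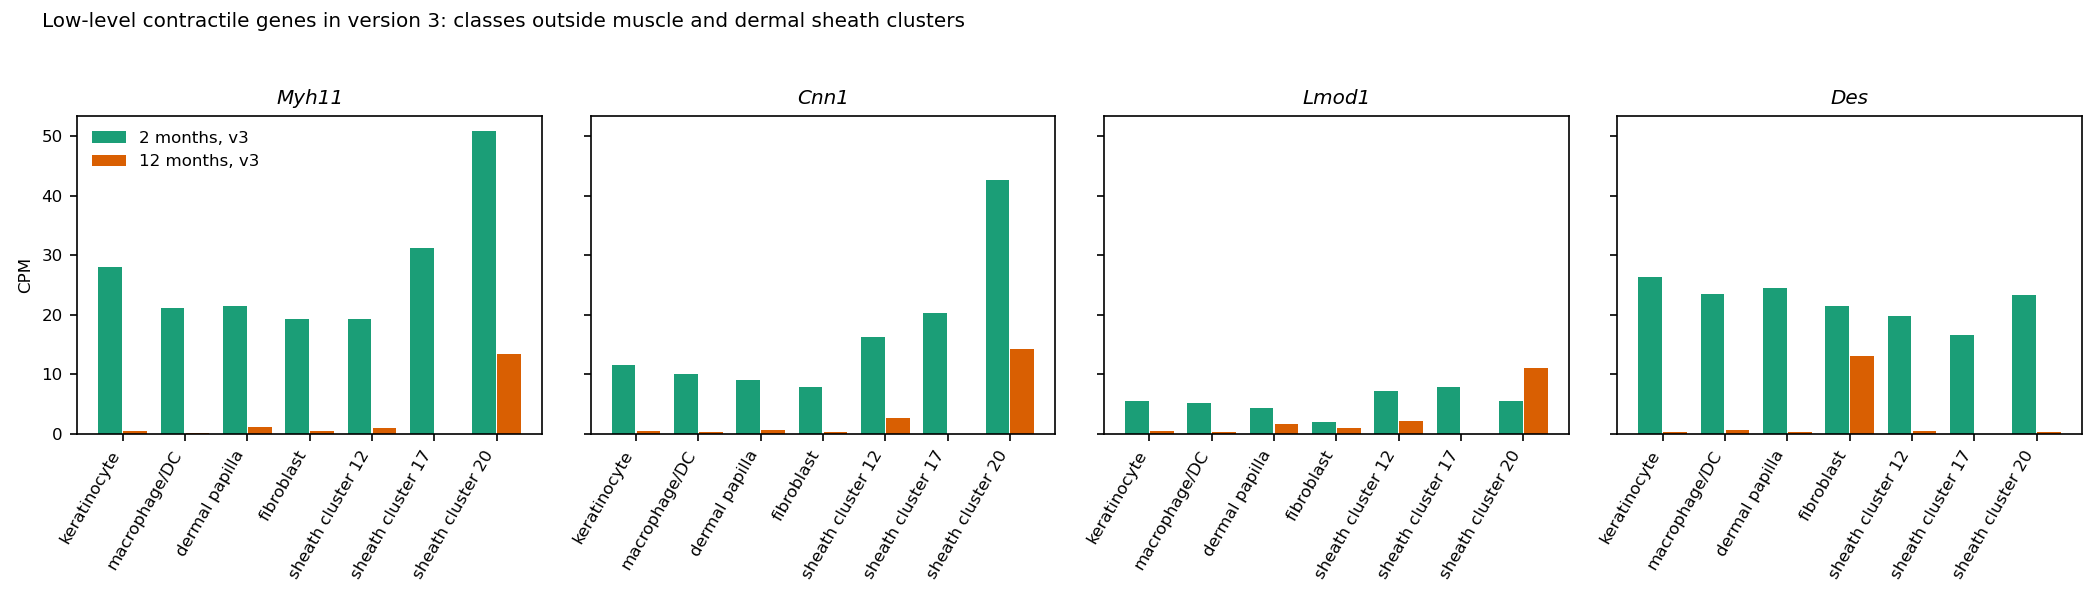
CPM of the 4 members that are scarce in the sheath, in version 3, for 4 classes outside muscle and the 3 sheath-like clusters; green is 2 months, orange 12 months, and bars with under 10 cells are left out. At 2 months all classes show Myh11 and Des between 16.6 and 50.9 CPM; at 12 months only sheath cluster 20 rises above 10 CPM for Myh11, Cnn1 and Lmod1, and only fibroblast-like cells for Des.

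Members were also called lower at 12 months in other classes. Within version 3, 5 members were called lower in papilla-like cells, 8 in keratinocyte-like, 6 in macrophage and dendritic-like and 3 in fibroblast-like cells, where 3.06%, 3.92%, 8.97% and 6.05% of genes were called lower. Within version 2, 0 were called lower in papilla-like (of genes, 2.07%), 1 in macrophage and dendritic-like (8.63%) and 5 in fibroblast-like cells (5.12%), and 4 were called higher in keratinocyte-like cells (19.8%). In papilla-like cells edgeR called 2 of 9 members tested, Myh11 (log2 fold -2.56 ± 0.40, SE, edgeR adjusted p = 3.35e-08) and Des (-3.55 ± 0.45, edgeR adjusted p = 2.18e-12), where 0.909% of 11435 genes were called lower. DESeq2 called neither, with adjusted p of 0.252 for Myh11 and 0.99997 for Des. In macrophage and dendritic-like cells it called Des (-3.58 ± 0.58, edgeR adjusted p = 0.0367), where 0.198% of 11601 were called lower, and DESeq2 gave no adjusted p for Des. In keratinocyte-like cells it called 0 of the 7 members tested and 0 of 10616 genes, a background of 0%, and 2 members had an unadjusted p below 0.05. Myh11 there had a log2 fold of -3.74 ± 1.05 (edgeR, adjusted p = 0.955). The part of the differing number of arrector pili-like cells in these values was not tested.

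In fibroblast-like cells edgeR also called Acta2, an abundant member. It was at 664 and 160 CPM in version 2 and at 742 and 550 CPM in version 3. Its log2 fold by edgeR was -1.16 ± 0.29 (adjusted p = 0.0481), and 3 of 9 members tested were called, all lower, where 2.24% of 11585 genes were called lower. The others called were Myh11 (-3.43 ± 0.52, edgeR adjusted p = 0.00363) and Cnn1 (-4.23 ± 0.58, edgeR adjusted p = 0.00204). With DESeq2 Acta2 was not called (adjusted p = 0.99994) and Myh11 and Cnn1 were. Tagln went opposite ways in the pairs, with ratios of 0.548 in version 2 and 1.28 in version 3, both with intervals that excluded 1. At 2 months in version 2, 5 of 185 cells held 45.2% of the Acta2 UMIs and 87.5% of those of Myh11, and with the Acta2 UMIs of the top 5 cells left out of each library of that chemistry Acta2 was at 364 and 127 CPM. Des at 12 months was at 13.0 CPM, or 113 UMIs in 51 of 704 cells, above the 0.231 CPM of keratinocyte-like cells and with 28.2 UMIs per Myh11 UMI. Some fibroblast-like cells of that library thus carried Des without Myh11. Because fewer contractile cells in a class and less RNA per cell give the same sum, the 2 cannot be told apart from summed values. The clusters that made up this class also shifted with age. The one led by Lum, Serpina3n and Mmp3 supplied 57 of 185 and 413 of 695 cells in version 2. In version 3 it supplied 56 of 374 and 482 of 704. Calls in this class, those of pathway genes below included, were not separated from this shift.

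Of 82 genes listed for the wider contractile pathway, 78 were in the files. By mean CPM over libraries, 14 of 24 thin filament and crosslinking genes with a mean of at least 10 CPM in some class were highest in arrector pili-like cells, as were 11 of 17 myosin light chain, non-muscle myosin and phosphatase genes. Of 16 calcium, receptor and relaxation genes 9 were highest in pericyte-like and 5 in arrector pili-like cells. Tpm2, a tropomyosin that lies along the actin filament, was at 14881 CPM in arrector pili-like, 3532 in pericyte-like and 1058 in sheath-like cells. Myl9, the regulatory light chain, was at 9677, 4646 and 1256 CPM and Ppp1r14a at 2589, 665 and 88.8 CPM. Myocd, the serum response factor partner, was at 68.2, 29.2 and 1.13 CPM. In the sheath the endothelin receptor Ednrb reached 1354 CPM against 24.1 in arrector pili-like cells. Myh9 and Myh10, non-muscle myosin heavy chains, were at 291 and 108 CPM in the sheath against 35.8 and 23.7 CPM in arrector pili-like cells. The sheath thus combined smooth muscle actins with little Myh11 and more of the non-muscle myosins.

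With age, edgeR called few pathway genes, where 1.94%, 2.94% and 4.51% of all genes were called in sheath-like, papilla-like and fibroblast-like cells. In sheath-like cells 0 of 24 thin filament and crosslinking genes, 0 of 17 myosin light chain and phosphatase genes, 0 of 14 calcium and receptor genes and 1 of 9 transcriptional regulators were called. That 1 was Klf4, a repressor of smooth muscle genes in other settings, which was higher by 0.62 ± 0.14 (log2, SE, edgeR adjusted p = 0.0274). Klf4 was also higher in papilla-like cells (0.86 ± 0.19, edgeR adjusted p = 0.000465) and fibroblast-like cells (0.69 ± 0.16, edgeR adjusted p = 0.0387). It is also one of the rapid response genes, with Fos, Jun and Egr1, that were left out of clustering. What its higher level reflects was not tested. In fibroblast-like cells 3 of 22 thin filament genes were lower, namely Tpm2 (-0.99 ± 0.17, edgeR adjusted p = 0.00786), Csrp1 (-0.64 ± 0.15, edgeR adjusted p = 0.035) and Sorbs2 (-2.77 ± 0.63, edgeR adjusted p = 0.0303). Myl9 was lower there too (-0.88 ± 0.20, edgeR adjusted p = 0.0282), and Ppp1r14a was higher (0.73 ± 0.16, edgeR adjusted p = 0.0251) although it was lower in papilla-like cells (-1.66 ± 0.32, edgeR adjusted p = 3.9e-05). In papilla-like cells Gucy1b3, a subunit of the nitric oxide receptor, was higher (1.13 ± 0.35, edgeR adjusted p = 0.0414).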

How the data were processed

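The 4 matrices of sorted dermal cells were used as deposited, and their values are UMI counts, whole numbers for each gene in each barcode. The submitters' processing notes list Cell Ranger 2.0.1, Seurat 2.1.0 and STAR, without roles, and the builds mm10 and GRCm38.p5, so how the authors called cells is not given in the sources used here. Software 3.0.1 is named in the matrix headers of version 3. A barcode was kept with 500 genes or more, 1000 UMIs or more and mitochondrial UMIs below 10%, and the 3% highest doublet scores were removed. Cells were clustered in scanpy 1.11.5 (2000 variable genes, 30 components, 15 neighbours, Leiden resolution 0.5) without the members and pathway genes. Mitochondrial, ribosomal protein, heat shock and sex-linked genes, eYFP and rapid response genes such as Fos, Jun and Klf4 were left out too. A cluster was named from at least 3 of its markers among its top 100 genes. CPM are of UMIs summed per class and library; classes need 10 cells per library for a ratio and 50 for edgeR 4.0.16 (R 4.3.3; TMM, filterByExpr, chemistry as covariate, two-sided, Benjamini-Hochberg over all genes). DESeq2 1.42.0 was an alternative. Intervals are exact Poisson or Clopper-Pearson at 95% (scipy 1.17.1) and cover counting error only. Nothing says that the libraries of a group came from separate experiments, so p-values measure the spread between these libraries. Scripts were tested on simulated data. The members, lists and tests were chosen with earlier results of these data known. All 10 members are named. Pathway genes are named where edgeR called them in the class or both pairs did, and their levels and likeness by rank are descriptions; Tpm2, Myl9, Ppp1r14a, Myocd, Ednrb, Myh9 and Myh10 levels were picked after their values were seen.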

Additional observations from a re-analysis of the deposited data

Results flagged for a closer look

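In keratinocyte-like cells Mylk and Tagln went opposite ways in the 2 pairs, each by at least 2-fold with a counting interval beyond 1. Mylk had a CPM ratio of 3.39 at 18 over 2 months in version 2, on 30 and 27 UMIs, and of 0.219 at 12 over 2 months in version 3, on 50 and 344 UMIs. Tagln had ratios of 12.7, on 141 and 34 UMIs, and 0.484, on 358 and 1114 UMIs. The difference between pairs was not tested. In version 2, 216 of the 244 keratinocyte-like cells at 2 months fell in a cluster that held 2 cells at 18 months, and 19.8% of 10700 genes were called higher there, with a median log2 ratio of 0.38 over all genes.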

How the results depend on the processing

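Pairing by replicate number was not possible, because such numbers are given only for the 2-month libraries and the older libraries have none to share. The chemistry term of the edgeR model already compares the ages within chemistry. Leaving out a 2-month library leaves 1 pair and no residual degree of freedom, so only the pair ratios given above remain. Counts below are members called of 10, and where they moved the cause was not tested unless the number of cells or genes shows it. For pairs, the share of all genes called was computed only in the main setting and without arrector pili-like cells. The other pair counts below therefore have no background. In version 2 over all kept cells, 3 became 5 with TMM scaling, 5 with a looser cell filter, 7 among cells with few markers of other types and 0 without arrector pili-like cells, where the log2 ratio of Cnn1 turned to 0.27; in version 3, 7 became 3 without them. In sheath-like cells of version 2, 1 became 0 with no doublet removal and 2 among cells with few markers of other types. In pericyte-like cells of version 3, 1 became 3 with TMM scaling. In arrector pili-like cells of version 2, 0 became 4 at resolution 1, which added 5 cells at 18 months. By edgeR, all kept cells went from 0 to 4 with DESeq2. Sheath-like cells went from 2 to 1 with DESeq2, 4 at resolution 1 and 0 both with no chemistry term and with 12 months coded as young. Under the last 2 settings 0 members and 0 of all genes tested were called in every class. The drops under these 2 settings were therefore not particular to the members. Papilla-like cells thus went from 2 to 0 (also 0 with DESeq2) and fibroblast-like cells from 3 to 0. Macrophage and dendritic-like cells went from 1 to 0 (also 0 with DESeq2, which gave Des no adjusted p). With no filter on low counts fibroblast-like cells went to 6, macrophage and dendritic-like cells to 3 and keratinocyte-like cells from 0 to 2, and at resolution 1 fibroblast-like cells went to 7. Of 85 recomputed summary values 59 stayed within 1.5 times and the other 26 are those above. Of the values of single members under these settings, 242 kept their direction and call or moved by less than their error, and 85 moved by more. Another 37 lost their call, in part because no test remained with a library left out. Among members called in the main setting 1, Cnn1 above, turned direction. Turns of members not called there, such as Acta2 without arrector pili-like cells, are counted by size among the 242 or the 85. Over all genes, edgeR's calls went from 0 to 384 with DESeq2 in all kept cells; from 241 to 68 with DESeq2, 526 with no filter and 376 with the unnamed cluster in sheath-like cells; from 336 to 59 with DESeq2 in papilla-like cells; from 522 to 189 with DESeq2 and 990 with no filter in fibroblast-like cells; from 0 to 9 with DESeq2 and 55 with no filter in keratinocyte-like cells; and from 126 to 200 with library totals alone, 608 with no filter and 419 at resolution 1 in macrophage and dendritic-like cells. Depth limits the sheath values of Des, Myh11, Cnn1 and Lmod1 in version 2 most, which rest on 3 to 16 UMIs.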

Other observations

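Endothelium-like cells of version 3, 74 at 2 months and 24 at 12 months, carried vascular members. Myh11 was at 141 and 90.6 CPM, Des at 118 and 62.0 CPM and Acta2 at 1089 and 1164 CPM, above the 27.9, 26.3 and 407 CPM of keratinocyte-like cells at 2 months. The Cnn1 to Myh11 ratio of their UMIs at 2 months was 0.0519, on 7 Cnn1 UMIs. It was 0.0418 in pericyte-like cells of that library, on 13 Cnn1 UMIs, and 0.390 in arrector pili-like cells. Pericyte-like cells of the other libraries had 0.186, 0.340 and 0.0909. Whether the endothelium-like droplets held pericyte RNA was not tested.

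The unnamed cluster led by Omd and Adamts18 resembled the sheath-like class in its contractile genes. In the 2-month version 3 library its 906 cells had Actg2 at 928 CPM, Mylk at 480 CPM and Tagln at 2778 CPM, against 736, 598 and 2789 CPM in the sheath-like class. Counted with the sheath, it left Des and Myh11 called lower by edgeR and added Cnn1 (log2 fold -0.87 ± 0.19, SE, edgeR adjusted p = 0.00847).

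Cells named as cycling also had contractile genes, with a median of 2, 2, 3 and 3 members per thinned cell (43, 34, 68 and 63 cells), against 3, 3, 4 and 3 in sheath-like cells.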
